A study of Mus musculus with 2 samples.

Results

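The cells described here were the plasma cells and plasmablasts of mouse pancreatic tumors, 186 of 14022 droplet barcodes that passed a quality filter. They were chosen by their own RNA. A barcode entered with 1000 or more unique molecular identifiers (UMIs, each standing for 1 captured RNA molecule), 200 or more genes and no more than 20% of UMIs from mitochondrial genes. It was kept when Jchain, Mzb1, Derl3 and Sdc1 together made up at least 0.2% of its UMIs. It also had to hold 0 UMIs of Siglech, at most 2 UMIs of Cd3e, Cd3g and C1qa together, and under 5% of UMIs from S100a8 and S100a9, which left out plasmacytoid dendritic cells, doublets with T cells or macrophages, and droplets full of neutrophil RNA. There were 44 such cells in the PBS library and 142 in the cmExoaCD11b library. The levels of the 4 marker genes therefore describe the selection and carry no test.

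The mice were male C57BL/6J animals of 5 to 6 weeks that carried orthotopic tumors of K210 cells, a line made from a pancreatic tumor of a mouse in which Pdx1-Cre had deleted Trp53 (Trp53 fl/fl), among other changes. Both groups were injected intraperitoneally every 3 days from day 7. The control group received PBS. The treated group received cmExoaCD11b, exosomes that held mRNA for the cytokine IL-12 and the STING agonist 2'3'-cGAMP (5 µg of cGAMP per mouse) and displayed an antibody against CD11b, a surface integrin of myeloid cells. Cells of the tumors, called immune cells in the study, were taken 48 h after treatment, and those of 3 mice were pooled into 1 library per treatment. With 1 library per treatment there was no replicate check, and treatment, library and animals cannot be told apart. No test between treatments was made. The intervals given below are exact 95% intervals (Clopper-Pearson for shares, Poisson for levels, conditional binomial for ratios) and cover counting error only. The PBS library held 67143628 UMIs and the cmExoaCD11b library 81288480.

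Plasma cells are the antibody factories of the B lineage. When a B cell is activated, the transcription factors encoded by Irf4, Prdm1 and Xbp1 shut down the B cell program, enlarge the endoplasmic reticulum (ER) and turn most of the cell's output to immunoglobulin. Plasmablasts are the stage that secretes antibody while still dividing; mature plasma cells have left the cell cycle. The heavy chain constant gene that a cell uses sets the isotype of its antibody: IgM before class switching, IgG in systemic responses, and IgA above all at mucosal surfaces, where it is bound into dimers by the J chain.

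The label held against genes that the selection did not use. Immunoglobulin made up a median of 28.1% of the UMIs of a PBS plasma cell (lowest 0.0720%, highest 72.3%) and 29.8% in the cmExoaCD11b library (0.468% to 75.4%), against 0.714% and 0.724% in B cells of the same libraries. The B cells, 170 and 171, were chosen by at least 3 UMIs in all over a list of B cell markers that included Cd79a, Cd79b and Ms4a1, under 0.05% of UMIs from the 4 plasma cell markers and the same exclusions. Plasma cells were also rich in RNA, with a median of 22641 UMIs in PBS and 24154 in cmExoaCD11b, against 4137 and 4909 in B cells. A small tail went against the label. Immunoglobulin was under 2% of UMIs in 2 PBS and 9 cmExoaCD11b cells, and these were kept because the rule did not ask for it. Just inside the marker threshold the lowest cells stood at 0.208% (PBS) and 0.205% (cmExoaCD11b), and just outside it the highest stood at 0.194% and 0.195%. Between 0.2% and 0.3% lay 6 and 9 of the chosen cells, whose medians overall were 1.91% and 1.65%. The exclusions removed 7 and 31 cells that had passed the marker threshold. No barcode was shared between the plasma cells of the 2 libraries, whereas 15 barcodes were shared among all cells that passed the quality filter.

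The summed level of 10 neutrophil genes, led by S100a9, was 3648 CPM (counts scaled to 1000000 UMIs that were not of immunoglobulin genes, the scale used for all gene levels below) in PBS and 3181 CPM in cmExoaCD11b plasma cells, with none of the 10 at 0. One PBS cell gave 57.7% of the PBS sum and one cmExoaCD11b cell 22.6% of the other; without these cells the sums were 1624 and 2484 CPM, which turned the direction between the libraries. In empty droplets, those with at most 100 UMIs, the sum was 88508 and 101545 CPM. The 10 macrophage genes summed to 448 and 550 CPM, led by Lyz2, with Ms4a7 at 0 in PBS. The 8 T cell genes summed to 18.5 and 17.2 CPM, led by Lck, with Cd3d, Trbc2 and Cd8a at 0 in PBS, and the 7 NK cell genes to 7.69 and 23.7 CPM. Krt19, Sox9 and Msln, which mark epithelial tumor cells, were at 0 in both libraries, and the epithelial sum (175 and 108 CPM) was nearly all Epcam and close to that of empty droplets (174 and 97.1 CPM). The 8 genes of plasmacytoid dendritic cells summed to 1046 and 821 CPM, above the 220 and 259 CPM of empty droplets, and were led by Tcf4; Siglech, which the rule excluded, and Klk1 were at 0. The pancreatic acinar list was at 0 in both libraries but for Cela1, with 5 and 4 UMIs. The part of this foreign RNA in the results below was not tested.

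Plasma cells took a larger share of the cmExoaCD11b library. They were 0.637% (0.463 to 0.855) of the 6904 PBS cells and 1.99% (1.68 to 2.35) of the 7118 cmExoaCD11b cells, a ratio of 3.13 (2.22 to 4.50). B cells, their precursors, made up 2.46% and 2.40%, a ratio of 0.976 (0.784 to 1.21). Among plasma cells and B cells together, plasma cells were 20.6% in PBS and 45.4% in cmExoaCD11b. Shares in a droplet library also depend on how many other cells were captured. When only cells under the S100a8 and S100a9 limit were counted, the shares were 0.933% and 3.63%, and the ratio was 3.89 (2.76 to 5.59). A looser marker threshold of 0.1% brought the ratio to 2.20.

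The antibody isotypes of the 2 libraries differed in their make-up. A cell was given an isotype when it held at least 10 UMIs of heavy chain constant genes and at least 80% of them came from 1 gene. In PBS, 22 of 44 plasma cells were IgA (50%, 34.6 to 65.4) and 20 were IgG (45.5%, 30.4 to 61.2). In cmExoaCD11b, 23 of 142 were IgA (16.2%, 10.6 to 23.3) and 97 were IgG (68.3%, 60 to 75.9). The number of IgA cells was thus about the same in both libraries, and most of the larger cmExoaCD11b count lay in the IgG cells. The PBS share depended on the marker threshold: with 0.1% IgA was 29.5% of PBS and 14.1% of cmExoaCD11b cells, and with 0.5% it was 60% and 17.3%. The rule used Jchain, a gene with higher levels in IgA cells (below). At 0.1% the median immunoglobulin share of the PBS cells was also lower, at 4.50%. The part of either in the move was not tested. IgM was the isotype of 1 PBS and 10 cmExoaCD11b cells, and 1 and 12 cells had no assigned isotype. No cell was assigned IgD or IgE, which allows shares of up to 6.82% in PBS and 2.11% in cmExoaCD11b by a limit of 3 counts (exact upper bounds 8.04% and 2.56%).

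Within IgG the subclasses also differed. IgG1, the subclass of type 2 helper responses, was the isotype of 1 PBS cell (2.27%, 0.0575 to 12.0) and of 37 cmExoaCD11b cells (26.1%, 19.1 to 34.1). IgG2c, the C57BL/6 counterpart of IgG2a and the subclass favored by interferon-gamma, made up 13 PBS cells (29.5%, 16.8 to 45.2) and 21 cmExoaCD11b cells (14.8%, 9.39 to 21.7). Of the IgG cells alone, IgG1 was 5% in PBS and 38.1% in cmExoaCD11b, and IgG2c was 65.0% and 21.6%. IgG2b was found in 6 and 32 cells (30.0% and 33.0% of IgG cells) and IgG3 in 0 and 7. The same order was seen in RNA outside cells. Of the 8965 heavy chain constant UMIs in PBS empty droplets, 34.4% were Igha, 31.1% Ighg2c and 3.70% Ighg1, whereas of 19941 such UMIs in cmExoaCD11b empty droplets 11.9% were Igha, 10.6% Ighg2c and 39.8% Ighg1. The assignment was clean in most cells: at least 99% of heavy chain constant UMIs came from 1 gene in 29 PBS and 86 cmExoaCD11b cells. Near-identical IgG constant genes share sequence, so reads between them could have been split by the counting. The plot of isotypes by library shows the shares with their intervals.

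**Figure D1:**
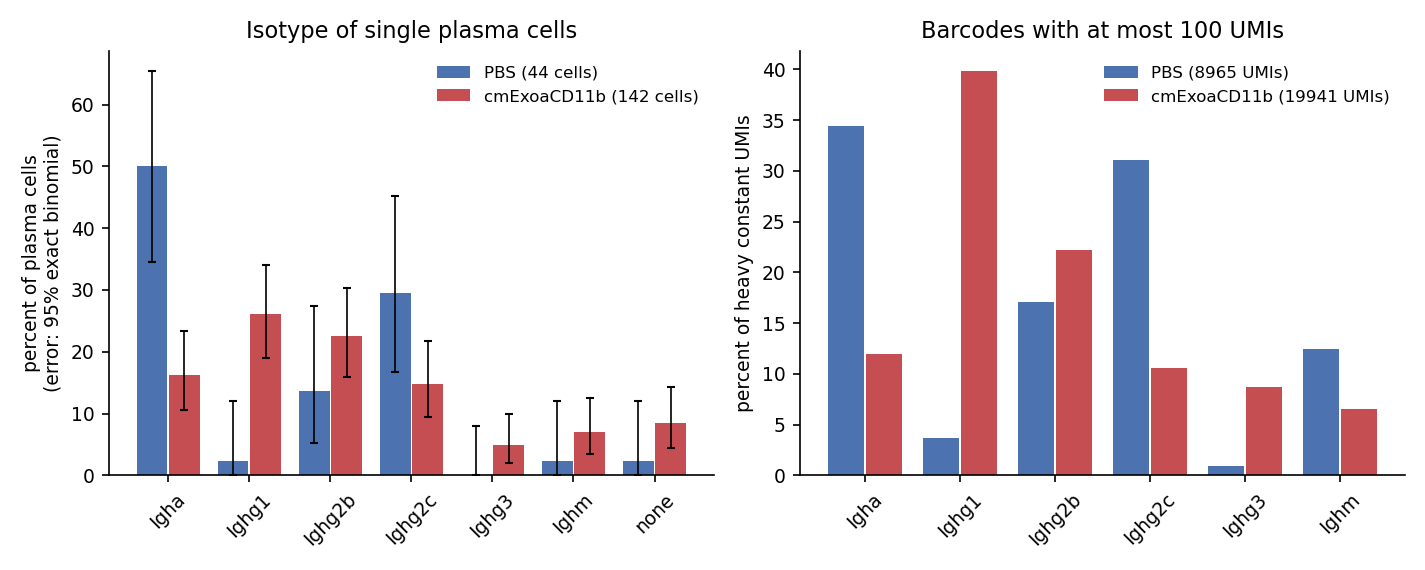
Left, isotype of single plasma cells as the percent of 44 PBS (blue) and 142 cmExoaCD11b (red) cells, with exact 95% intervals as lines; right, heavy chain constant UMIs of barcodes with at most 100 UMIs, as percent by gene. Igha is 50% of PBS and 16.2% of cmExoaCD11b cells and Ighg1 is 2.27% and 26.1%, and the empty droplets show the same direction for both genes.

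The light chain shares of the libraries lay close together. Kappa was the light chain of 40 of 44 PBS cells (90.9%, 78.3 to 97.5) and 130 of 142 cmExoaCD11b cells (91.5%, 85.7 to 95.6), and lambda that of 3 and 6. The median cell held 2.57 light chain UMIs for each heavy chain constant UMI in PBS and 2.70 in cmExoaCD11b. A heavy chain variable gene could be assigned in 18 PBS cells, which used 13 genes, and in 59 cmExoaCD11b cells, which used 37. Ighv9-3 was found in 4 cells of each library, Ighv1-72 in 3 PBS cells, and Ighv1-76, Ighv6-6 and Ighv8-8 each in 4 cmExoaCD11b cells. Among kappa variable genes, Igkv1-117 led in cmExoaCD11b with 12 of 86 assigned cells, before Igkv1-135 with 7 and Igkv14-111 with 6. In PBS the 25 assigned cells used 20 genes, with Igkv3-12 in 3. A heavy and a light chain variable gene, kappa or lambda, were both assigned in 15 PBS cells with 14 different pairs and in 52 cmExoaCD11b cells with 49. The largest pair in either library was found in 2 cells, and no pair was common to both libraries. Even within a library only 1 PBS and 3 cmExoaCD11b pairs recurred, so nothing is read from the lack of a common pair. One pair with Ighv6-6 and Igkv1-117 was found in an IgG1 and an IgG2b cell, and one with Ighv1-72 and Igkv17-121 in an IgA and an IgG2c cell. Variable genes are close relatives of each other and the library reads start from the 3' end, so these assignments are uncertain, and a shared pair of genes does not show a shared clone.

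The genes of the plasma cell program stood far above the B cells of the same library. Genes are counted here when the 2 libraries gave the same direction. Across 10439 genes, 7.48% were at least 2-fold higher and 14.8% at least 2-fold lower in plasma cells in both libraries, and since the selection used this contrast, the counts below are a description from which nothing is read. Of 14 plasma cell genes that the rule did not use, 13 were at least 2-fold higher in both libraries, with a median ratio of 22.1 in PBS and 14.3 in cmExoaCD11b, against 0.863 and 0.830 over all genes. Xbp1, the factor that enlarges the ER, was at 67.6 CPM in PBS B cells and 1555 CPM in PBS plasma cells, a ratio of 23.0 (18.3 to 29.2), and at 137 and 1954 CPM in cmExoaCD11b, a ratio of 14.3 (12.5 to 16.4). Prdm1, which encodes the repressor BLIMP-1, had 3.34 CPM in PBS B cells and 138 CPM in PBS plasma cells, against 2.94 and 119 CPM in cmExoaCD11b. Irf4, already present in B cells, differed least, with ratios of 1.56 (1.25 to 1.95) and 2.82 (2.42 to 3.30). Tent5c, an enzyme that lengthens poly(A) tails of immunoglobulin mRNA, had ratios of 11.1 and 22.3, and Tnfrsf17, the survival receptor BCMA, was at 0 UMIs in B cells and at 114 and 62.1 CPM in plasma cells. Cd28 was at 93.8 and 84.2 CPM in plasma cells and rested on 1 and 5 UMIs in B cells.

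The secretory machinery followed the route of an antibody through the cell. For entry into the ER, 12 of 17 measured genes were at least 2-fold higher in both libraries, such as Sec61b, a subunit of the translocation channel (ratios 4.97 and 3.83), and Sec11c, a subunit of the signal peptidase (16.8 and 10.4). For folding, 15 of 19 were. Hspa5, the ER chaperone BiP, was at 678 CPM in B cells and 4334 CPM in plasma cells of PBS, a ratio of 6.39 (5.91 to 6.92), and at 788 and 3404 CPM in cmExoaCD11b, a ratio of 4.32 (4.08 to 4.58). Hsp90b1, the chaperone GRP94, had 370 and 7915 CPM in B cells and plasma cells of PBS, and 636 and 9776 CPM in those of cmExoaCD11b. Creld2, an ER disulfide isomerase, had ratios of 42.5 and 21.2. The lectin chaperone Canx did not reach 2-fold, with ratios of 1.13 (0.931 to 1.38) and 1.32 (1.18 to 1.48). For degradation of misfolded proteins, all 11 measured genes were at least 2-fold higher in both libraries, among them Edem1 (15.2 and 12.2) and Herpud1 (8.69 and 7.12). For transport to the Golgi it was 13 of 17, with the cargo receptor Lman1 at ratios of 10.1 and 8.03, and for N-glycan addition 7 of 11. The catalytic subunit gene Stt3b went the other way, at 0.487 and 0.390.

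Of 10 measured genes of unfolded protein response signaling, 5 were at least 2-fold higher in both libraries. Creb3l2, a factor of the secretory pathway, had ratios of 15.4 (8.23 to 32) and 46.1 (23.2 to 107), and Atf6, the sensor that is cut in the Golgi, 3.06 and 2.89. Eif2ak3, which encodes the sensor PERK, stood at 0.891 (0.695 to 1.14) and 0.830 (0.697 to 0.990). Of the genes downstream of PERK, Ppp1r15a, its feedback phosphatase subunit, stood at 0.774 and 0.632, and Ddit3, which encodes CHOP, at 1.48 (1.06 to 2.05) and 0.879 (0.625 to 1.24). Of the amino acid transport and synthesis genes 6 of 10, and of the oxidative phosphorylation genes 5 of 14, were at least 2-fold higher in both libraries.

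The ERSE, a promoter element known to be bound by ATF6 with NF-Y, was looked for in the RefSeq promoters of GRCm38.p6, from 250 bases before to 50 bases after each gene's start. The letters searched were CCAAT and CCACG with 9 bases of any kind between them, on both strands, and 39 of 32851 promoters (0.119%) held them. Of the ER folding genes with a promoter in that table, 8 of 18 held the letters: Calr, Canx, Creld2, Dnajc3, Ero1b, Hsp90b1, Hspa5 and Pdia6. None of the promoters of the entry, transport, glycosylation or unfolded protein response lists did (0 of 12, 0 of 14, 0 of 8 and 0 of 10), and of the degradation genes only Syvn1 did (1 of 10). The second element searched, TGACGTGG on both strands, was in 222 of 32851 promoters (0.676%), in 0 of 18 folding genes, in 3 of 14 Golgi transport genes (Copb2, Kdelr3 and Sec24d), in 2 of 10 degradation genes (Ube2j1 and Vcp), and in 2 of 12 plasma cell genes outside the rule (Pou2af1 and Txndc5). Among measured folding genes, 5 of 7 with the ERSE letters and 8 of 10 without them were at least 2-fold higher than in B cells in both libraries. A match is a description of the letters and not a shown site. The promoters of 4 genes with large differences are printed from 5′ to 3′ on the strand of the gene, with the ERSE letters and the bases between them in capitals, to show how the element lies before the start of the genes described above. Hspa5 lies on the plus strand at chr2:34771840-34772139, Hsp90b1 on the minus strand at chr10:86705395-86705694 with 2 matches, Creld2 on the plus strand at chr15:88819396-88819695, and Derl3, which the selection used, on the plus strand at chr10:75893148-75893447. The matches in Creld2 and Derl3, and the second in Hsp90b1, read on the opposite strand.
Hspa5: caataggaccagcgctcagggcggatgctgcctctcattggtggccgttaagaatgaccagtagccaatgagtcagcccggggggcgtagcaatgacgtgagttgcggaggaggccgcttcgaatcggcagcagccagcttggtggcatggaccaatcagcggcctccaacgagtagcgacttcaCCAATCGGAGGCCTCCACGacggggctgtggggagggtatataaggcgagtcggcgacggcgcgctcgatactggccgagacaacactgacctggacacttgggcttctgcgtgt
Hsp90b1: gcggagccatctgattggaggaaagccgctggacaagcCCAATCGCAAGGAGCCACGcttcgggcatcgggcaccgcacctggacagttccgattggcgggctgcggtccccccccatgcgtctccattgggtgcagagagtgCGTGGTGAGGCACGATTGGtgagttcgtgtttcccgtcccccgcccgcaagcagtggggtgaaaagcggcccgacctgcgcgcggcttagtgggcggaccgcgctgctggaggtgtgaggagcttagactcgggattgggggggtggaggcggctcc
Creld2: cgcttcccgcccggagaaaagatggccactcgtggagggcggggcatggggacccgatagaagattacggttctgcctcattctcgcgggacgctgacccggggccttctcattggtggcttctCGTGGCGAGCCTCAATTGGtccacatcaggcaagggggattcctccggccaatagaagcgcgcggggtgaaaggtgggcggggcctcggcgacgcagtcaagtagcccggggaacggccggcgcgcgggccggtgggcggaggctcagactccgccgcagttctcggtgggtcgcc
Derl3: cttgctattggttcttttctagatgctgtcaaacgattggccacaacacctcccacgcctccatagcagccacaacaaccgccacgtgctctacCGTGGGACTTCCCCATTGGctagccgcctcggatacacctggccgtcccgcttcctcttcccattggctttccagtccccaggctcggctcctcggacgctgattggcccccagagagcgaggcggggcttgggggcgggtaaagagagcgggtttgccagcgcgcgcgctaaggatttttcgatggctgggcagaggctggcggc

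**Figure D2:**
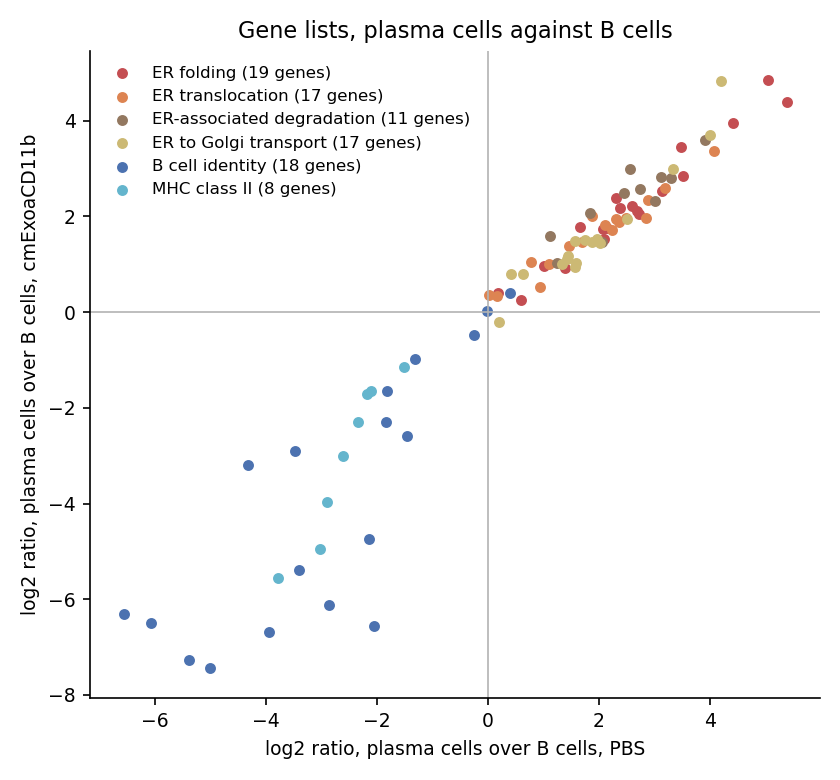
Log2 ratio of plasma cell to B cell level (1 UMI added) in PBS, on the x axis, and in cmExoaCD11b, on the y axis, with 1 point per gene colored by list. Above 0 on both axes lie 63 of 64 genes of the 4 secretory lists shown, and below 0 on both 16 of 18 B cell identity and all 8 MHC class II genes, with list medians of 5.23 and 4.32 for ER folding and 0.179 and 0.160 for MHC class II as ratios.

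The B cell identity list holds the genes that chose the B cells, so its direction was partly set by the selection. Of its 18 genes, 14 were at least 2-fold lower in plasma cells in both libraries, and of 8 MHC class II genes all 8 were. Pax5, the factor that maintains B cell identity, was at 392 CPM in PBS B cells and 35.4 CPM in plasma cells, and at 306 and 6.95 CPM in cmExoaCD11b. Of the PBS plasma cell UMIs of Pax5, 22 of 23 came from 1 IgG cell in which immunoglobulin was 0.645% of UMIs. Ebf1 had ratios of 0.0494 and 0.108, and Cr2, a complement receptor of mature B cells, 0.00750 and 0.00747. H2-Aa, a class II chain, had 2223 and 434 CPM in B cells and plasma cells of PBS, and 1620 and 331 CPM in those of cmExoaCD11b, and Ciita, the activator of class II genes, had ratios of 0.108 and 0.0280. Not all B lineage genes were lower against this B cell set, which held neutrophil precursor RNA (below). Cd79b, one of the genes that chose the B cells and a signaling chain of the B cell receptor, had ratios of 0.989 (0.829 to 1.18) and 1.01 (0.903 to 1.14), and the adaptor Blnk 1.31 and 1.32. The lymph node homing receptor gene Ccr7 (0.00528 and 0.0101) was low in plasma cells, as was S1pr1 (0.0576 and 0.0926).

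By size alone, the 10 genes highest against B cells were Jchain, Derl3 and Mzb1, which the rule used, with Tnfrsf17, Ccr10, Slpi, Cpeb3, Prg2, Hid1 and Pycr1. Cpeb3, an RNA-binding protein gene, was at 1.67 CPM in PBS B cells and 335 CPM in plasma cells, and at 5.30 and 400 CPM in cmExoaCD11b. Hid1, a gene of secretory granule sorting, was at 0 UMIs in B cells of both libraries and at 47.7 and 59.3 CPM in plasma cells. Prg2 and Pycr1, an enzyme of proline synthesis, were likewise at 0 UMIs in B cells. Of the 10 genes lowest against B cells, Ctsg, Elane, Prtn3, Mpo and Ms4a3 are genes of neutrophil precursors. Elane was at 3774 and 5485 CPM in the B cells and at 12.3 and 21.7 CPM in plasma cells, so the B cell set held such RNA. Without B cells that had at least 5 UMIs of Elane, Mpo, Prtn3 and Ctsg, 1318 genes in place of 781 were at least 2-fold higher in plasma cells in both libraries. The ratios of plasma cells to B cells given above use all the B cells. The part of the precursor RNA in each ratio was not tested.

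Ccr10, Ccr9 and Itgb7, genes of mucosal homing, were higher in IgA than in IgG plasma cells of both libraries, and Slpi was lower. Both classes came from the same pooled libraries, so cells and not animals stand behind these ratios. Across 8498 genes, 1.94% were at least 2-fold higher and 1.68% at least 2-fold lower in IgA cells in both libraries. Without dividing cells, 180 genes in place of 165 were higher and 45 in place of 143 lower, and E2f8, named below, is a cell cycle gene. The counts ask for both libraries to go one way, and whether the libraries were alike was not tested. Ccr10, the receptor for chemokines of mucosal epithelia, was at 19.8 CPM in IgG and 384 CPM in IgA cells of PBS, a ratio of 19.4 (9.10 to 49.4), and at 19.3 and 229 CPM in cmExoaCD11b, a ratio of 11.9 (7.87 to 18.2). Ccr9, a receptor of small intestinal homing, was at 0 UMIs in PBS IgG cells and 45.8 CPM (13 UMIs) in PBS IgA cells, and at 3.21 and 21.3 CPM in cmExoaCD11b. Itgb7, a chain of the gut homing integrin, had ratios of 3.17 (1.53 to 7.06) and 2.88 (1.93 to 4.24). These 3 were the homing genes, of 12 measured, that were at least 2-fold higher in both libraries, and the median ratio of the list was 2.05 in PBS and 1.03 in cmExoaCD11b. Other lists also had unlike medians, such as B cell identity (0.368 and 0.730) and survival (1.47 and 0.828). Of 23 measured interferon-response genes, 5 were at least 2-fold higher in IgA cells of both libraries and 0 lower, with median ratios of 1.88 and 1.30.

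Among genes higher in IgA cells, Runx2 ranked first by the smaller of its ratios in the 2 libraries. This transcription factor gene was at 5.66 CPM in IgG and 208 CPM in IgA cells of PBS (ratio 36.8, 9.73 to 311), and at 15.5 and 201 CPM in cmExoaCD11b (13, 8.25 to 20.8). Tnfrsf17 was at 14.1 CPM in IgG and 240 CPM in IgA cells of PBS, a ratio of 16.9 (6.92 to 53.9), and at 33.7 and 216 CPM in cmExoaCD11b, a ratio of 6.41 (4.50 to 9.15). Pls1, an actin-bundling protein gene, had ratios of 7.68 and 22.8, Serpina3g 12.9 and 6.36, and Ctla4, an inhibitory receptor gene, 5.06 and 3.76. Jchain, which the selection used, was at 9491 and 53404 CPM in PBS and at 14208 and 46921 CPM in cmExoaCD11b, higher in IgA cells in both libraries. Cd28 had ratios of 8.25 (3.90 to 20.1) in PBS and 1.30 (0.884 to 1.87) in cmExoaCD11b, and this difference between libraries was not tested.

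Slpi was the gene furthest below its IgG level in IgA cells, ranked in the same way. It encodes a secreted inhibitor of leukocyte proteases. In IgG cells Slpi was at 30947 CPM in PBS and 26328 CPM in cmExoaCD11b, and in IgA cells at 1695 and 756 CPM, ratios of IgA to IgG of 0.0548 (0.0499 to 0.0600) and 0.0287. This single gene was 3.09% and 2.63% of all UMIs outside the immunoglobulin genes in IgG cells. By cell, the median was 21915 and 19476 CPM in IgG cells, with highest values of 102521 and 175986 CPM, and 0 in IgA cells of both libraries. At least 10000 CPM was reached by 13 of 20 and 65 of 97 IgG cells, and by 1 of 22 and 0 of 23 IgA cells. The IgM cells held Slpi too, at 10897 CPM in the single PBS cell and 10127 CPM in cmExoaCD11b, where 3 of 10 cells reached 10000 CPM, and no IgM cell was without it, whereas 13 and 12 IgA cells were. The classes overlapped in the IgG cells with little Slpi: a lower quartile of 193 CPM in PBS IgG cells lay within the IgA range. Outside plasma cells, Slpi was at 203 and 294 CPM in B cells and at 1197 and 1426 CPM in empty droplets. The remaining cells held it at 1224 CPM (66358 UMIs) in PBS and 1102 CPM (72474 UMIs) in cmExoaCD11b. The other genes lowest in IgA cells were BC035044, Ovol3, 4933404K13Rik and E2f8, each with at most 1 UMI in the IgA cells of either library. None of the genes for ER entry, folding, degradation, glycosylation or Golgi transport differed by 2-fold in the same direction in both libraries. Over all 8498 genes only 1.94% were higher and 1.68% lower. A count of 0 lies near these shares, so nothing particular to the secretory lists is read from it. The plot of single cell levels by class shows the spread of 4 genes that differed by 2-fold.

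**Figure D3:**
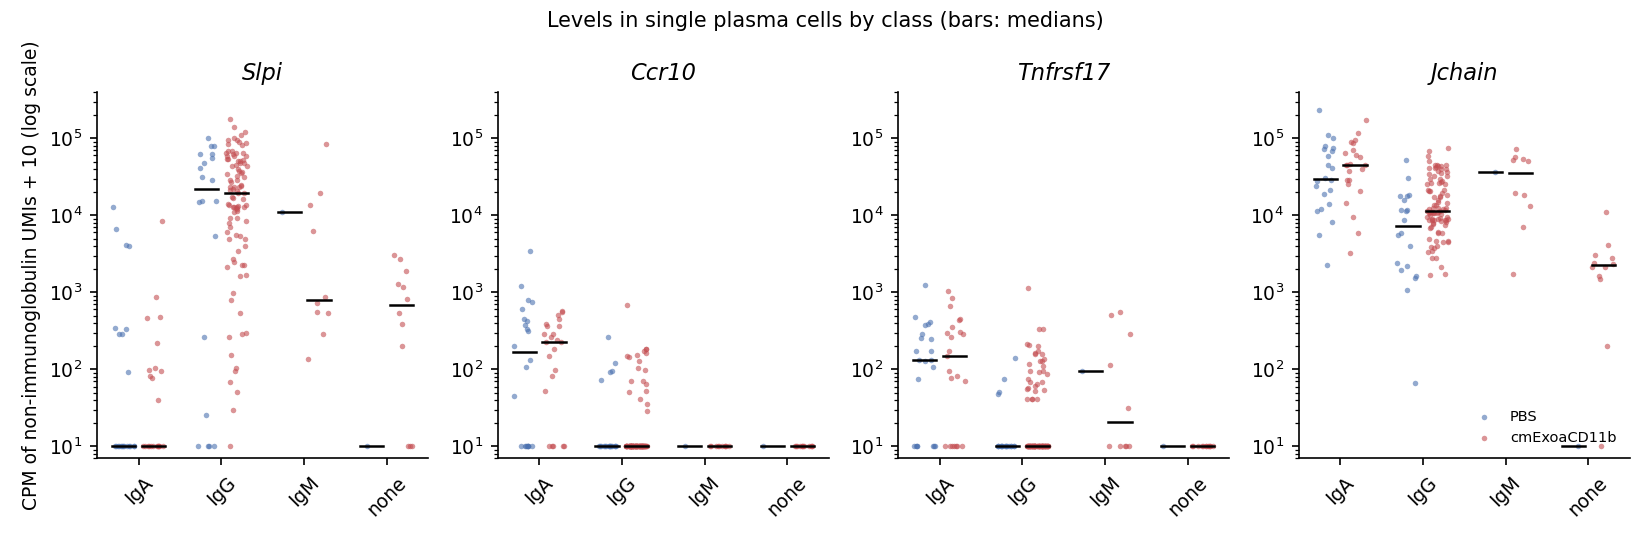
Slpi, Ccr10, Tnfrsf17 and Jchain in single plasma cells by class (none: no assigned isotype), in CPM outside immunoglobulin genes plus 10 on a log axis, with 1 point per cell and bars at medians, PBS in blue and cmExoaCD11b in red. Slpi has medians of 21915 and 19476 CPM in IgG cells and 0 in IgA cells, while the IgA medians are above the IgG medians for the other 3 genes.

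Many of the cells were dividing. A cell was called dividing when it held at least 3 UMIs of 16 genes of the G2 and M phases. In PBS 16 of 44 plasma cells did (36.4%, 22.4 to 52.2), and in cmExoaCD11b 83 of 142 (58.5%, 49.9 to 66.7). B cells reached 10.0% and 13.5%, and 6.71% and 6.92% without those that held neutrophil precursor RNA. Since B cells hold fewer UMIs, all cells were also thinned to 1000 UMIs outside immunoglobulin genes each, and a UMI of these genes was asked for in place of 3; 1 shallower cmExoaCD11b cell was left out. Then 10 of 44 PBS plasma cells (22.7%, 11.5 to 37.8) and 71 of 141 cmExoaCD11b plasma cells (50.4%, 41.8 to 58.9) held one. In B cells it was 20 of 170 (11.8%, 7.34 to 17.6) and 28 of 171 (16.4%, 11.2 to 22.8), and 7.32% and 10.7% without the cells with precursor RNA. Between the extremes, 15 PBS and 23 cmExoaCD11b cells held 0 UMIs of the 16 genes, and 13 and 36 held 1 or 2, so some cells lay near the threshold. By isotype, 8 of 22 PBS and 11 of 23 cmExoaCD11b IgA cells were dividing, and 8 of 20 and 63 of 97 IgG cells (40.0%, 19.1 to 63.9, and 64.9%, 54.6 to 74.4). IgG2b cells had the highest shares among the subclasses with over 5 cells, 4 of 6 in PBS and 27 of 32 in cmExoaCD11b (84.4%, 67.2 to 94.7). In cmExoaCD11b 22 of 37 IgG1 cells (59.5%, 42.1 to 75.2), 10 of 21 IgG2c cells and 4 of 7 IgG3 cells were dividing.

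**Figure D4:**
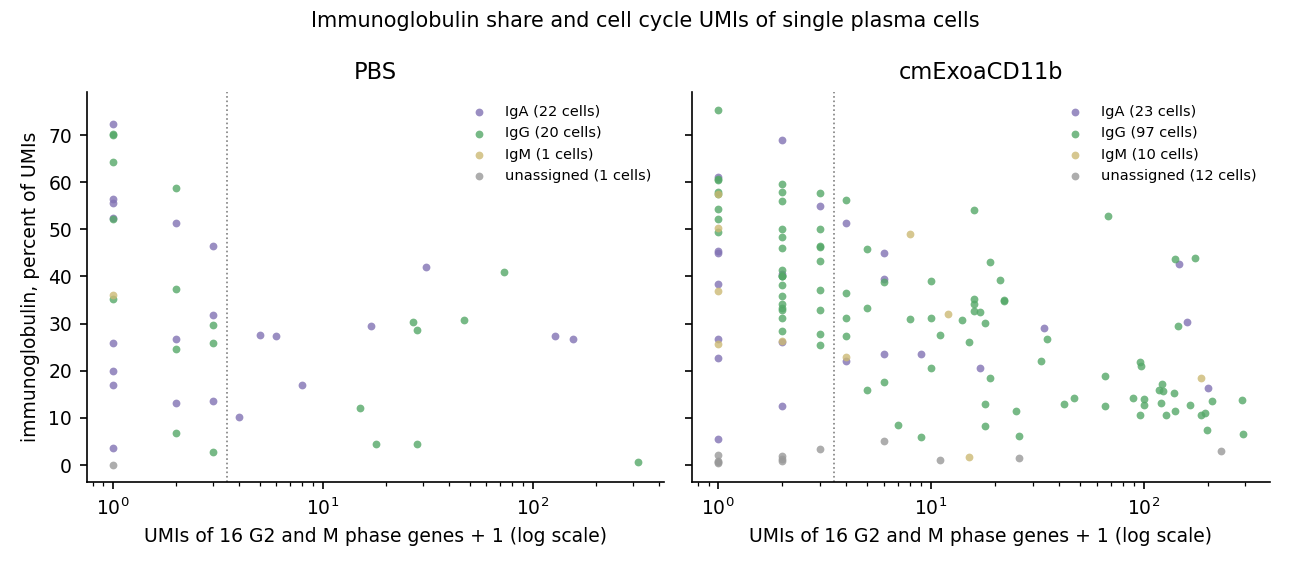
Immunoglobulin as percent of UMIs (y axis) against UMIs of 16 G2 and M phase genes plus 1 (x axis, log scale) in single plasma cells of each library, colored by class, with a dotted line at the limit for dividing cells. To the right of the line lie 16 of 44 PBS and 83 of 142 cmExoaCD11b cells, with median immunoglobulin shares of 27.4% and 21.9% against 33.5% and 40.2% to its left.

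The median immunoglobulin share of UMIs was 27.4% in dividing and 33.5% in other cells of PBS, and 21.9% and 40.2% in cmExoaCD11b. The call is tied to this measure, since a deeper cell, or one with less immunoglobulin, has more UMIs with which to pass: the median depth was 30166 UMIs in dividing and 18168 UMIs in other PBS cells, and 26738 and 20434 UMIs in cmExoaCD11b. By the call on cells thinned to 1000 UMIs outside immunoglobulin genes, the medians were 25.6% in 10 PBS cells with a UMI of these genes and 30.0% in 34 without, and 20.6% in 71 and 36.2% in 70 cmExoaCD11b cells, and the ranges overlapped in both libraries. Across 8719 genes, 6.34% were at least 2-fold higher and 2.4% at least 2-fold lower in dividing cells in both libraries. The S phase genes, which were not used to call division, were higher together. Of 16, 15 were at least 2-fold higher in both libraries, with median ratios of 6.43 and 7.34. The PBS cell with the most G2 and M phase UMIs gave 34.8% of them and held 0.645% immunoglobulin; without it the PBS median was 5.62. Tyms, an enzyme of thymidylate synthesis, had ratios of 6.22 and 8.75, and the replication clamp gene Pcna 3.70 and 5.12. Ly6c2, a surface protein gene used as a marker of antibody-secreting cells in mice, was at 818 CPM in other and 267 CPM in dividing cells of PBS (0.327, 0.255 to 0.416), and at 845 and 130 CPM in cmExoaCD11b (0.153, 0.131 to 0.179). Of the 10 immediate early genes, 3 were at least 2-fold lower, and Dusp1, a phosphatase gene of this list, had ratios of 0.273 and 0.414. Of 24 measured interferon-response genes, 6 were at least 2-fold lower in dividing cells of both libraries and 0 higher, with median ratios of 0.510 and 0.608. Hspa5 was at 0.557 and 0.562 of its level in other cells, while Xbp1 was at 0.857 (0.757 to 0.972) and 0.853 (0.799 to 0.910). Among the genes of the selection, Jchain was at 0.509 and 0.334, Mzb1 at 0.522 and 0.556 and Derl3 at 0.373 and 0.411.

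Between the libraries, no gene of the 5 secretory lists differed by 2-fold over all plasma cells, while 14 of 24 interferon-response genes and some genes of the cell cycle, B cell identity and neutrophil lists did. Of 8719 genes, 5.68% were at least 2-fold higher and 3.93% at least 2-fold lower in cmExoaCD11b plasma cells, and the median ratio over all genes was 1.02. None of the 19 ER folding, 17 ER entry, 11 degradation, 17 Golgi transport or 11 glycosylation genes differed by 2-fold. Their median ratios were 1.03, 1.05, 0.964, 1.07 and 1.07. Within IgA cells the folding and degradation medians were 1.43 and 1.25, and within IgG cells 0.996 and 0.978. The medians of the other 3 lists lay between 1.01 and 1.13 in both classes. Within IgG cells 1 of the 17 Golgi transport genes was at least 2-fold lower. Hspa5 stood at 0.785 (0.752 to 0.820) and Hsp90b1 at 1.24 (1.2 to 1.27) of the PBS level. Ddit3 was the member of the unfolded protein response list below this limit, at 105 and 33.1 CPM, a ratio of 0.316 (0.226 to 0.443). Of the G2 and M phase genes 4 of 16 and of the S phase genes 3 of 16 were at least 2-fold higher, with median ratios of 1.5 and 1.45. Mki67, the proliferation marker, was at 138 CPM in PBS and 325 CPM in cmExoaCD11b, a ratio of 2.35 (1.89 to 2.96), and Top2a at 114 and 230 CPM. The G2 and M phase genes were also higher outside plasma cells, with 9 of 16 at least 2-fold higher and a median ratio of 2.29 in B cells, and 4 of 16 and 1.75 in empty droplets. The B cell set held neutrophil precursor RNA. Without the cells that held it, 6.71% of PBS and 6.92% of cmExoaCD11b B cells were dividing, against 10.0% and 13.5% with them. By the thinned call it was 7.32% and 10.7%, against 11.8% and 16.4%. The medians of the G2 and M phase genes were 1.30 within IgG and 1.30 within IgA plasma cells, and those of the S phase genes 1.12 and 1.55.

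Of 12 measured B cell identity genes 4 were at least 2-fold lower in cmExoaCD11b (Fcmr, Bach2, Pax5 and Bcl6), with a list median of 0.731. One PBS cell held 23.7% of the UMIs of this list in PBS. Of the 10 neutrophil genes 4 were at least 2-fold higher (Cxcr2, Csf3r, Mmp8 and Retnlg), with a list median of 1.48, against 1.25 in empty droplets, and 1 cell gave 27.8% to 48.5% of the UMIs of each of the 4. Of the NK cell genes both measured ones, Nkg7 (0 and 23 UMIs) and Gzma (2 and 22 UMIs), were at least 2-fold higher, and 1 cmExoaCD11b cell gave 48.3% of the UMIs of the NK cell list; of the 4 measured genes of plasmacytoid dendritic cells Ccr9 and Runx2, both genes high in IgA cells, were at least 2-fold lower. The part of other cells' RNA in these differences was not tested.

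By summed counts, many interferon-response genes were higher in the cmExoaCD11b cells. Of 24 measured genes of the list, 14 were at least 2-fold higher and none 2-fold lower, with a median ratio of 2.19. By cell, the summed level of the list had medians of 2074 CPM in PBS and 2676 CPM in cmExoaCD11b. Within IgG cells these medians were 2392 and 2722 CPM, and within IgA cells 1879 and 2520 CPM. For Isg15, a ubiquitin-like protein gene, the PBS level was 26.1 CPM (15.2 to 41.9) and the cmExoaCD11b level 197 CPM (180 to 216), a ratio of 7.55 (4.67 to 13.1). Rsad2, which encodes viperin, was at 6.15 and 48.2 CPM, a ratio of 7.84 (2.98 to 29.2), and Trim30a at 29.2 and 118 CPM, a ratio of 4.03 (2.53 to 6.79). Irf7, the factor that amplifies type I interferon, was at 13.8 and 42.1 CPM, and Ifit2 at 0 and 44 UMIs. Not every gene of the list followed. Ifi27l2a, Zbp1, Ifitm3 and Ly6e had log2 ratios of 0.07, 0.12, 0.14 and 0.29. Bst2 was at 395 and 316 CPM, lower by value in cmExoaCD11b. The level was uneven among cells: the median cell held 0 UMIs of Isg15 in both libraries, the upper quartile was 0 in PBS and 191 CPM in cmExoaCD11b, and the highest cells were at 350 and 12926 CPM. The latter cell had no assigned isotype; the highest cmExoaCD11b cells with one were at 1656 (IgG) and 1072 CPM (IgA).

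The same list was higher in the other RNA of the cmExoaCD11b library. In B cells, those with neutrophil precursor RNA included, 13 of 24 genes were at least 2-fold higher, with a median ratio of 2.16, where 4.16% of all 9181 genes were. In empty droplets 18 of 25 were, with a median ratio of 2.34, where 4.2% of 10989 genes were. Empty droplets held more Isg15 than the plasma cells, 217 CPM in PBS and 480 CPM in cmExoaCD11b. After free RNA equal to 10% of each cell's UMIs was subtracted, the count of interferon genes at least 2-fold higher was 7 and the list median was 0.49 on the log2 scale, against 1.13 before. The log2 ratio of Rsad2 went from 2.66 to 0.62, and that of Isg15 from 2.84 to 6.40. PBS plasma cells held only 4 UMIs of Rsad2 and 17 of Isg15 beforehand, so little or nothing was left to divide by. Both values after subtraction therefore rest on the 1 UMI added and are not exact folds. Of all genes 6.93% were 2-fold higher after the subtraction. With 0 UMIs of the T cell and macrophage genes and under 1% of UMIs from S100a8 and S100a9 asked of each plasma cell, 11 interferon genes were at least 2-fold higher and the list median was 1.01 on the log2 scale (6.94% of all genes were higher). The count was 8 without the cells that scored highest as doublets (1 PBS and 7 cmExoaCD11b plasma cells, 5.11% of all genes), 9 among cells with at least 10% immunoglobulin (7.23%), 11 of 22 among IgG cells (7.12%) and 3 of 10 among IgA cells (4.55%). Isg15 itself was higher by value in each class, at 17.0 and 190 CPM in IgG cells and at 38.8 and 201 CPM in IgA cells. Whether plasma cells differed more or less than other cells was not tested.

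**Figure D5:**
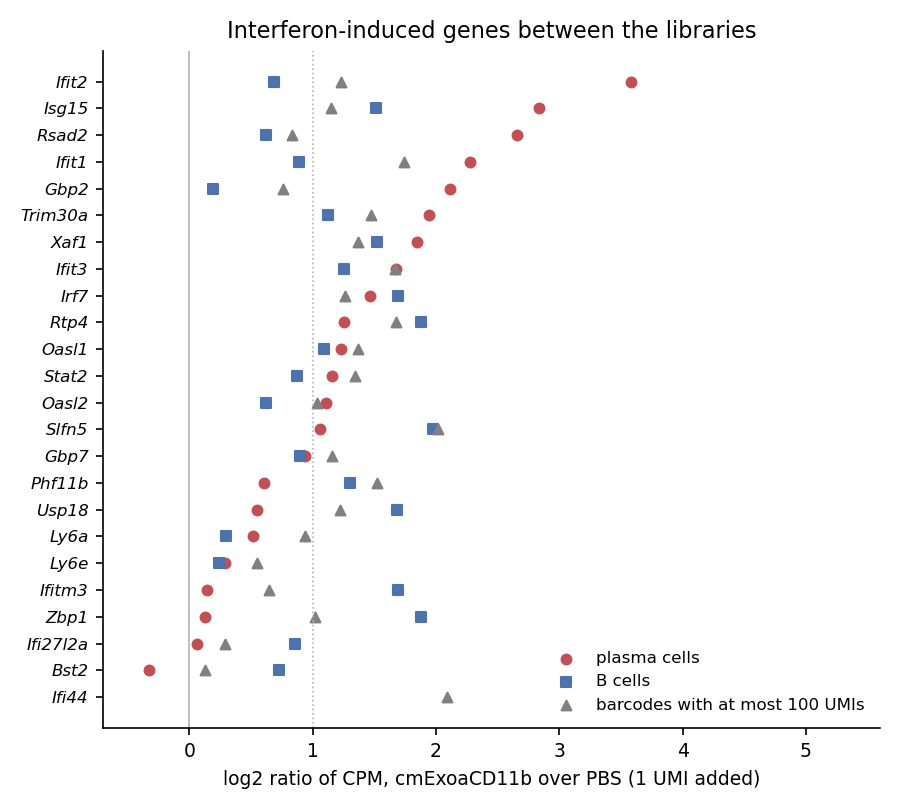
Log2 ratio of cmExoaCD11b to PBS level (1 UMI added) for 24 of the 25 interferon-response genes, in plasma cells (circles), B cells (squares) and barcodes with at most 100 UMIs (triangles); the dotted line marks 2-fold. The medians over the list are 1.13, 1.11 and 1.23, and in plasma cells Bst2 lies below 0 and Ifi44 was not measured.

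The 10 genes furthest apart in each direction were named by size. Besides Isg15 and Rsad2, the higher ones included Ifih1, a sensor of viral RNA (4.61 and 36 CPM), Ifitm1 (16.9 and 119 CPM), Retnlg, Saa3, Hdc, Hist2h3c1 and C430049B03Rik. Several rested on few cells. One IgM cell gave 42.3% of all Retnlg and 40.5% of all Hdc UMIs, both genes of neutrophils or basophils, and single IgG cells gave 51.9% of C430049B03Rik and 38.4% of Saa3 UMIs. Empty droplets held Retnlg at 2536 and 3712 CPM, against 52.3 and 403 CPM in plasma cells. Under the stricter exclusion just described, the log2 ratio went from 2.91 to 0.22 for Retnlg and from 2.52 to 0.32 for Hdc. The lower ones were Spp1, 5430427O19Rik, Rgs13, Tnf, Bach2, Lrmp, Gm49980, Mt2, Gpr19 and Hilpda. Mt2, a metallothionein gene, was at 635 CPM in PBS and 119 CPM in cmExoaCD11b, a ratio of 0.187 (0.161 to 0.218), and at 263 and 71.4 CPM in empty droplets. Its largest single cell gave 15.8% of the UMIs. Spp1, a macrophage gene, was at 117 and 10.2 CPM, with 44 UMIs from 1 cell without an isotype, and at 2322 and 422 CPM in empty droplets. Rgs13, Bach2 and Lrmp, genes of germinal center or activated B cells, owed 43.5%, 49.6% and 53.4% of their UMIs to the same PBS IgG cell that held Pax5. Single PBS cells also gave 62.6% of 5430427O19Rik, 53.4% of Gpr19 and 48.3% of Tnf UMIs.

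Some ratios between libraries were nearer 1 within an isotype class than over all cells, and others were not. Ccr10 was at 178 CPM in PBS and 45.4 CPM in cmExoaCD11b, a ratio of 0.254 (0.194 to 0.333). Within IgA cells the ratio was 0.595 (0.437 to 0.806) and within IgG cells 0.973 (0.427 to 2.59). Tnfrsf17, the other gene of IgA cells, had a ratio of 0.546 (0.411 to 0.731) over all cells, 0.903 (0.638 to 1.28) within IgA and 2.39 (0.970 to 7.60) within IgG cells. Cxcr3, the receptor for interferon-induced chemokines, was at 24.6 and 52.3 CPM, a ratio of 2.13 (1.26 to 3.83), with ratios of 1.02 (0.422 to 2.52) within IgA and 4.13 (1.72 to 13) within IgG cells. Ly6c2 was at 517 and 300 CPM (0.580, 0.509 to 0.661), with ratios of 0.984 (0.739 to 1.31) within IgA and 0.474 (0.405 to 0.556) within IgG cells. Of the immunoregulatory genes, Cd274, which encodes PD-L1, was at 298 and 416 CPM (1.39, 1.19 to 1.63), with 335 and 719 CPM in IgA cells and 277 and 389 CPM in IgG cells. By cell, the Cd274 medians went the other way over all cells, at 242 and 228 CPM. They were 331 and 348 CPM in IgA cells and 168 and 222 CPM in IgG cells. The highest cmExoaCD11b IgA cell was at 7553 CPM. Il10 was at 95.4 and 64.6 CPM (0.677, 0.502 to 0.924), and the classes went opposite ways by value, with 141 and 24.4 CPM in IgA cells and 62.2 and 68.5 CPM in IgG cells. Irf4 was at 228 and 347 CPM, a ratio of 1.52 (1.28 to 1.83) that was 1.56 within IgA and 1.57 within IgG cells, whereas Prdm1 was at 138 and 119 CPM (0.859, 0.676 to 1.10).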

How the data were processed

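Cells of pancreatic tumors, called immune cells in the study, were measured in 2 libraries with 10x Chromium 3' chemistry. What the authors deposited were unnormalized counts of UMIs for every gene in every barcode, empty droplets included, from Cell Ranger (7.1.0 per the file headers); the genome build was not given in the sources used here. The cell annotation of the study was not used here. Cells, plasma cells and B cells were selected as stated in the results, and both the members and the gene lists were chosen with earlier results of these data known. UMIs were summed per library and class and divided by the UMIs outside immunoglobulin genes. Genes needed at least 20 UMIs over the classes compared. Ratios in the text are of plain levels; list medians, 2-fold counts and the choice of named genes used 1 UMI added to each side. Named genes had at least 50 UMIs and were the 10 furthest apart in each direction (5 for IgA against IgG), plus listed genes. No doublets were removed in the main analysis; Scrublet in scanpy 1.11.5 gave the alternative without them. With 1 library per treatment, no model was fitted. The ratio computation was tested on simulated data. Python 3.11.15, numpy 2.4.6, scipy 1.17.1 and pandas 2.3.3 were used. Alternatives were other UMI, marker, mitochondrial and exclusion limits, doublets, free RNA, scaling and gene filters; subsets by isotype, division or immunoglobulin share and the narrower B cell set were partly chosen after seeing the data. Some named genes and 1 allele are not reported here.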

Additional observations from a re-analysis of the deposited data

How the results depend on the processing

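No paired analysis was possible because each treatment has 1 library, and for the same reason no library could be left out. Of the alternative values of the main results, 124 stayed within the counting interval or, for counts of genes, within 1.5 times, and 21 moved; the cause was not tested unless the setting itself gives it. With a marker threshold of 0.1%, the ratio of shares was 2.20, IgA was 29.5% of PBS cells, the immunoglobulin medians were 4.50% and 22.1%, and 47.5% of cmExoaCD11b cells were dividing. The 14 of 24 interferon genes (5.68% of all genes were higher) became 8 without doublets (5.11%) and 7 after subtraction of free RNA (6.93%). They became 9 in cells with at least 10% immunoglobulin (7.23%). In IgA cells they became 3, where only 10 of the list were measured (4.55%). The 343 lower genes became 212 with CPM of all UMIs, 2093 without a filter on low counts, 117 with at least 50 UMIs, 144 without dividing cells and 224 in IgA cells. The 495 higher genes became 812 with the mean of single-cell levels, 270 with at least 50 UMIs and 194 in IgA cells. Against B cells, CPM of all UMIs gave 404 higher and 3199 lower genes, and B cells without precursor genes 1318 higher. Without dividing cells, 45 genes in place of 143 were lower in IgA than in IgG cells. Some ratios of at least 2-fold between libraries changed sign (log2): Lrmp to 0.27 with a marker threshold of 0.5% and 0.32 with at least 10% immunoglobulin; Rgs13 to 0.54 with strict exclusion and 0.61 without dividing cells; 5430427O19Rik to 0.19 and Bach2 to 0.21 without dividing cells; in IgA cells alone Gpr19 to 1.38, Ifitm1 to -0.21, Saa3 to -3.21 and Top2a to -0.058. Smaller ratios did so too within a class: Jchain from -0.62 to 0.58 and Tnfrsf17 from -0.88 to 1.01 in IgG cells, and Slpi from 0.23 to -1.16 in IgA and -0.23 in IgG cells. With strict exclusion Retnlg was at 0.22 and Hdc at 0.32. The PBS library, with 44 plasma cells, limits every share and most ratios.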
